A study of Mus musculus with 12 samples.

Results

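Immediate early response genes are described here as a set of 41 mouse genes, picked by name from the gene symbols of the deposited count table. All 41 were among the 23378 genes listed there. They comprise 11 AP-1 and partner bZIP transcription factors, 12 EGR, KLF, NR4A and Myc type transcription factors, 6 feedback inhibitors of signalling, 4 mRNA decay and antiproliferative factors and 8 stress and early response effectors. After the filter on low counts, 39 of the 41 were tested, among 14180 genes in all. Fosl1 had between 0 and 4 counts and Egr3 between 0 and 7 counts per library, and neither was tested.

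The study compared macula densa cells, tubule cells that sense luminal salt and control renin release, with other cells of the mouse kidney cortex on a control diet and under stimulation of the renin system. Every animal was of the C57BL/6 strain and carried the nNos CreERT2 and mTmG transgenes, so that a Cre recombinase expressed under nNos control turns on a membrane green fluorescent protein in macula densa cells while all other kidney cells keep the red tdTomato. Cortex was digested after 14 days and both populations were sorted by fluorescence, the green cells as macula densa and the brightest red cells as controls meant to stand for distal tubule and collecting duct epithelium. The 12 libraries form 4 groups. They are macula densa cells on the control diet (n = 2), macula densa cells on low salt food plus enalapril, which blocks angiotensin-converting enzyme, given in drinking water at 150 mg/L (n = 2), and control cells under the same 2 regimens (n = 4 each). The labels do not state that each library came from a separate mouse, so p-values measure the spread between these libraries. All 12 libraries came from digested and sorted tissue, and the part of digestion in the levels below was not tested.

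Immediate early genes are transcribed within minutes of a stimulus, from promoters that preexisting factors such as SRF, CREB and NF-kB already occupy or reach quickly, and without new protein synthesis. Their products either carry the signal on, as FOS and JUN do when they pair into AP-1, or shut it down, as the DUSP phosphatases, SOCS3 and ZFP36 do. Growth factors, mitogen-activated kinases and cyclic AMP induce them, and so do handling stresses such as the enzymatic dissociation of a tissue. In macula densa cells a low luminal salt concentration is known to activate mitogen-activated kinases and to raise Ptgs2, itself a primary response gene.

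Promoter sequences were read for the members whose results are given in full below and whose window holds a serum response element core (the CArG box, bound by SRF) or a full cAMP response element (TGACGTCA, bound by CREB), because these are the elements through which primary response genes are classically switched on. Windows came from RefSeq (GRCm38.p6) and ran from 250 bases before to 50 bases after the transcription start. At least 1 window was found for 33 of the 41 members, and none for Fosl1, Cebpd, Egr1, Egr3, Klf10, Myc, Trib1 and Ier2. The 250 bases before the start are printed on the strand of the gene, with the element in capitals.
Zfp36 (chr7:28379229-28379478, minus strand, CArG box): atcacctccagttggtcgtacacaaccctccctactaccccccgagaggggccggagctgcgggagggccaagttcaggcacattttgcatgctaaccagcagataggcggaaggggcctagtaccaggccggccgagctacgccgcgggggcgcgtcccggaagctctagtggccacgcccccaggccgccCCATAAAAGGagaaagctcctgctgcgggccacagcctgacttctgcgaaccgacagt
Dusp1 (chr17:26508473-26508722, minus strand, cAMP response element): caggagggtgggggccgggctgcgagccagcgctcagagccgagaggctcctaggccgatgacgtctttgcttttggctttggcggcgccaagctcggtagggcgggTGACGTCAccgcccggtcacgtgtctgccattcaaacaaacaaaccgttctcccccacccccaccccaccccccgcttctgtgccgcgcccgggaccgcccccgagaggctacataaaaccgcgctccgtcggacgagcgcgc
Btg2 (chr1:134079156-134079405, minus strand, cAMP response element): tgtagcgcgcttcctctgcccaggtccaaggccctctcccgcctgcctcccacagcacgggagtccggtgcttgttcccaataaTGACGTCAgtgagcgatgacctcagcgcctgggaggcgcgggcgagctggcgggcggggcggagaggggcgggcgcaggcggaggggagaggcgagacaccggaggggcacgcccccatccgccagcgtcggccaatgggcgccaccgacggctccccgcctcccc
Ppp1r15a (chr7:45526269-45526518, minus strand, cAMP response element): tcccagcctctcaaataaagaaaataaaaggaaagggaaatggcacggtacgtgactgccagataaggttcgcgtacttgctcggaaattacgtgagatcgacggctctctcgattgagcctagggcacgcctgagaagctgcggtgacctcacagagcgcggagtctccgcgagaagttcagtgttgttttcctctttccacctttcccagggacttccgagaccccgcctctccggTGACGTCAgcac
The CArG box of Zfp36 began 58 bases before the start, and the cAMP response elements began 143 bases before the start of Dusp1, 166 before that of Btg2 and 12 before that of Ppp1r15a. A CArG box, searched on both strands, was present in 3 of the 33 members with a window (Dusp5, Egr2 and Zfp36), against 1.81% of 27025 genes. The cAMP response element was present in 4 of 33 (Btg2, Dusp1, Maff and Ppp1r15a), against 2.03% of genes. The AP-1 site TGACTCA was found in Csrnp1 alone of the 33 (5.95% of genes), and TATAAA in 10 of 33 (15.7% of genes). These matches describe letters in the window and are not evidence of binding. Elements outside the window were not searched for, so a member without a match, such as Fos, may hold one farther away.

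Total estimated counts per library ran from 4259034 to 14856540, but Gm42418, a gene model that overlaps ribosomal RNA sequence, held 53.5% to 65.0% of them, and the nuclear protein-coding genes held 781241 to 2331458. At this depth 3 counts corresponded to 0.231 to 0.734 CPM (counts scaled to library size), and values near or under that level carry little weight. The sort was checked with Nos1, the gene that drives the Cre, which measured 100.4 and 111 CPM in the macula densa libraries on the control diet, 232 and 122 CPM on low salt with enalapril, and between 0.109 and 0.734 CPM in the 8 control cell libraries. The control cells did not match their label in full. Their 7 collecting duct principal cell markers summed to between 102 and 808 CPM, while their 7 podocyte markers summed to between 44.8 and 1398 CPM and their 8 endothelium markers to between 44.2 and 1297 CPM. In macula densa libraries the endothelium markers summed to between 10.2 and 145 CPM and the podocyte markers to between 29.1 and 168 CPM. Control cells on the control diet, replicate 4, stood apart. Its log2 CPM correlated with those of the other 3 replicates at r between 0.788 and 0.879 across genes, against 0.933 to 0.948 among those 3. Its endothelium and podocyte sums were the lowest of the 8 control cell libraries at 44.2 and 44.8 CPM, and its principal cell sum was the highest at 808 CPM. Highest of the 8 were also its sums for thick ascending limb (1511 CPM), distal convoluted and connecting tubule (641 CPM) and intercalated cells (320 CPM). Mitochondrially encoded genes held 9.98% of its counts, against 3.81% to 5.13% in the other 3 replicates. Results below are given with and without that library where it matters.

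The summed level of the 41 genes separated the 4 groups. It was 281 and 272 CPM in macula densa cells on the control diet, 357 and 441 CPM in macula densa cells on low salt with enalapril, 718, 568, 643 and 586 CPM in control cells on the control diet, and 822, 739, 882 and 907 CPM in control cells on low salt with enalapril. No library of one group fell within the range of another, and the order was the same in both populations, with the low salt and enalapril libraries above those of the control diet. As a share of nuclear protein-coding counts the sums were 0.156% to 0.164%, 0.176% to 0.204%, 0.313% to 0.359% and 0.386% to 0.508% in the same order of groups. In bulk libraries fewer cells of a type and less RNA per cell cannot be told apart, and this holds for every level here.

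**Figure D1:**
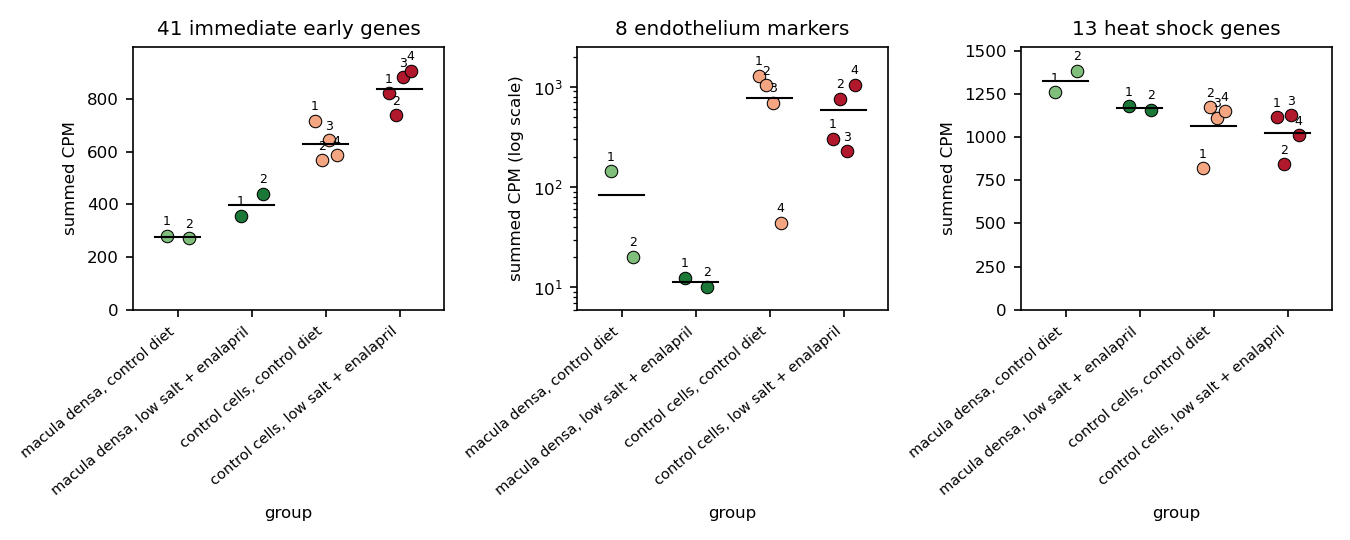
Summed CPM per library (points, numbered by replicate; lines, group means) for the 41 immediate early genes, 8 endothelium markers (log axis) and 13 heat shock genes in the 4 groups. The immediate early sums of the 4 groups do not overlap (272 to 281, 357 to 441, 568 to 718 and 739 to 907 CPM), while replicate 4 of the control cells on the control diet has an endothelium sum of 44.2 CPM against 693 to 1297 CPM in the other 3.

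Within a population the genes differed widely in level. Per kilobase of exon, the most abundant members in control cells on the control diet were Jund (27.5 ± 4.74 CPM per kb, mean ± SD, n = 4), Klf2 (23.2 ± 13.003), Jun (21.2 ± 3.68) and Rhob (16.6 ± 8.02). In macula densa cells on the control diet the order began with Jund (15.4 ± 6.66 CPM per kb, n = 2), Jun (13.2 ± 0.375), Zfp36l1 (12.2 ± 0.427) and Gadd45g (9.104 ± 7.06), and Klf2 was at 1.77 ± 1.504 CPM per kb. Neighbours in these orders differed by less than the larger of their SDs, except Jun and Zfp36l1 in macula densa cells.

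**Figure D2:**
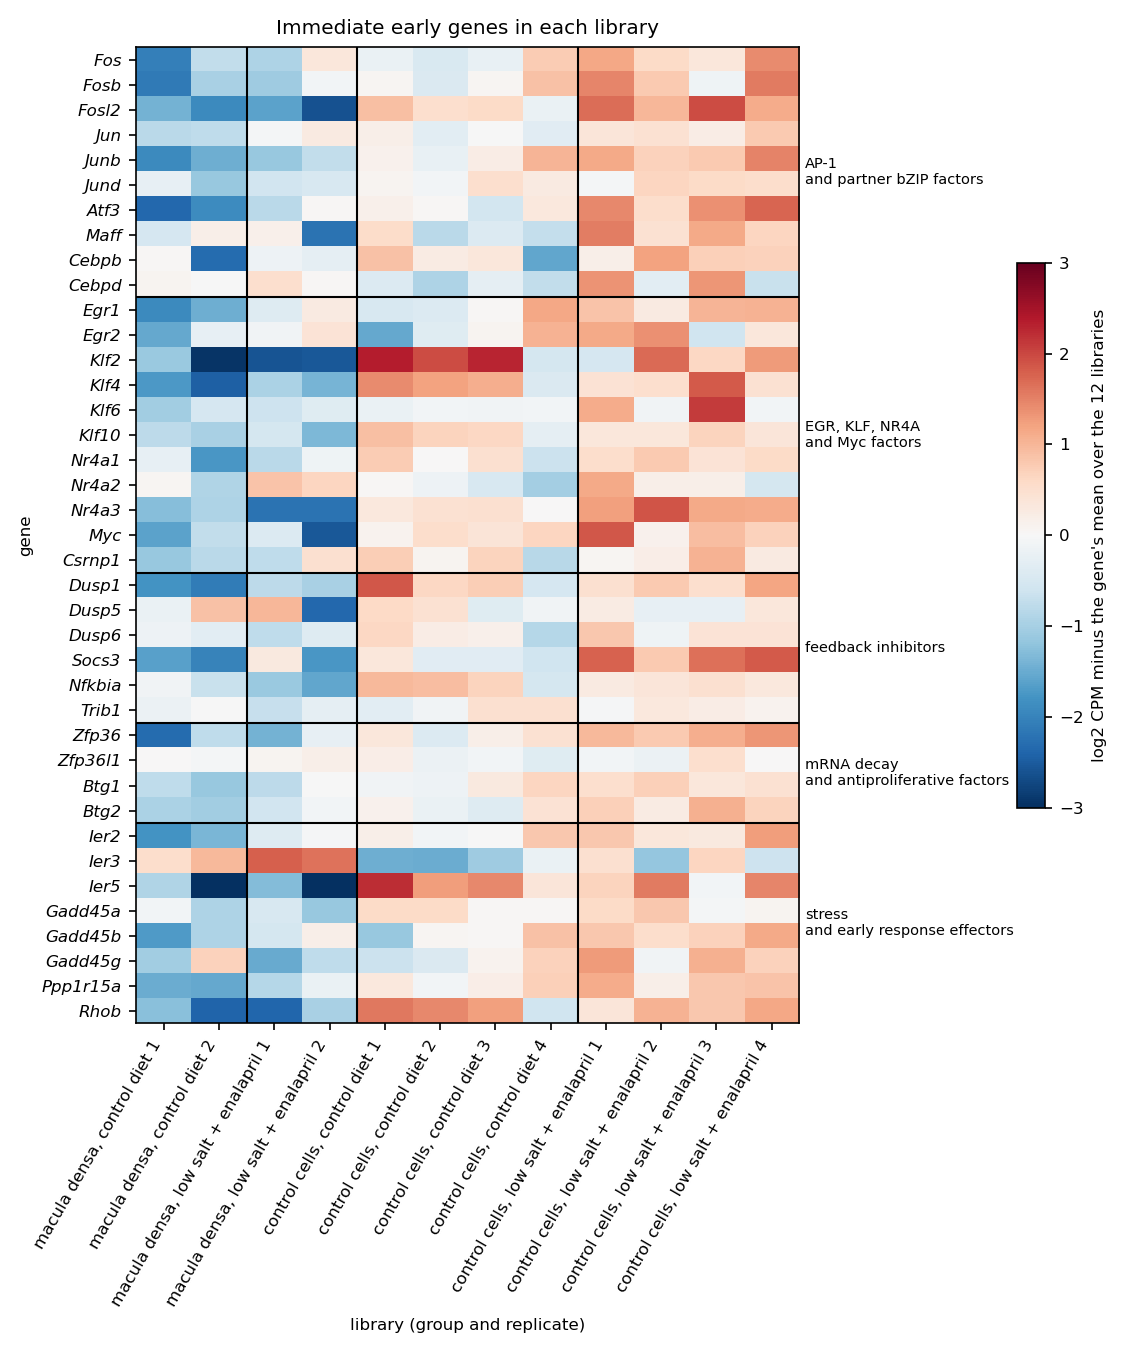
Log2 CPM of the 39 tested immediate early genes in the 12 libraries, each gene relative to its mean over all 12 (colour), grouped by role (horizontal lines) and by group (vertical lines). The 4 macula densa columns are mostly below the mean and the 4 columns of control cells on low salt with enalapril mostly above it; Ier3 runs the other way, and in control cells on the control diet Klf2, Rhob, Klf4 and Ier5 are lower in replicate 4 than in the other 3.

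The first question was whether macula densa cells and control cells carry these transcripts at different levels. On the control diet 14 of the 39 members passed an adjusted p of 0.05 (edgeR's quasi-likelihood test with Benjamini-Hochberg adjustment over 14180 genes), 13 lower in macula densa cells and 1, Ier3, higher, where 6.61% of all genes tested passed (3.92% lower and 2.69% higher). On low salt with enalapril 14 passed, again 13 lower and Ier3 higher, against 7.27% of all genes (4.13% lower and 3.15% higher). For the mean of both diets, which uses all 12 libraries, 27 of 39 passed, 26 lower and Ier3 higher, against 21.3% of all genes (13.9% lower and 7.48% higher). The members' median log2 fold change was -1.37 on the control diet, -1.19 on low salt with enalapril and -1.21 for the mean of both, while the median of all genes lay at -0.05, -0.06 and -0.06. All 4 macula densa libraries were below all 8 control cell libraries for 14 members, against 5.28% of all genes in that direction. The number in the library descriptions is shared by 1 macula densa and 1 control cell library in 4 cases, and within these 4 couples 33, 34, 33 and 34 of the 39 members were lower in the macula densa library. The median log2 difference within a couple ran from -1.32 to -1.21 for the members and from -0.111 to -0.0037 for all genes. The 2 diets' comparisons share no library, and the tests below are for the mean of both diets unless stated otherwise. Levels are given per library in replicate order, for each population first on the control diet and then on low salt with enalapril, macula densa cells before control cells.

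Among the 10 tested AP-1 and partner bZIP factors, 7 were lower in macula densa cells and 3 (Maff, Cebpb and Cebpd) did not pass. Fos, the best known immediate early gene and the FOS partner in AP-1, measured 6.46 and 16.3 CPM in macula densa cells on the control diet and 14.4 and 35.1 CPM on low salt with enalapril, against 23.8, 19.9, 23.4 and 47.01 CPM and 61.9, 41.1, 35.1 and 73.7 CPM in control cells. The populations overlapped through 1 library, replicate 2 of the macula densa cells on low salt with enalapril, which lay inside the control cell range. The log2 fold change of Fos was -1.21 (SE 0.36, adjusted p = 0.0319 by edgeR). Fosb, a close relative, measured 1.64 and 3.91 and then 3.64 and 7.38 CPM in the macula densa groups against 8.201, 5.73, 8.19 and 14.7 and then 22.3, 13.7, 7.14 and 23.5 CPM in control cells. For Fosb the log2 fold change was -1.65 (SE 0.40, adjusted p = 0.0122 by edgeR). Fosl2, which encodes the longer-lived Fos relative FRA2, separated the populations completely. It measured 3.28 and 2.28 CPM and 2.87 and 1.31 CPM in macula densa cells on the 2 diets and 17.3, 13.1, 13.8 and 7.96 CPM and 29.97, 18.6, 36.1 and 20.2 CPM in control cells. Its log2 fold change was -2.94 (SE 0.32, adjusted p = 0.000106 by edgeR), the lowest adjusted p of the 39.

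The JUN partners were also lower in macula densa cells. Jun was abundant in both populations, at 41.2 and 42.9 CPM and 69.9 and 87.8 CPM in macula densa cells and 81.7, 57.97, 72.6 and 57.8 CPM and 93.3, 99.6, 85.3 and 125 CPM in control cells on the control diet and on low salt with enalapril. The ranges overlapped. For Jun the log2 fold change was -0.52 (SE 0.16, adjusted p = 0.0406 by edgeR). Junb, a JUN relative that opposes some JUN targets, was at 4.31 and 5.95 CPM and 7.47 and 10.01 CPM in macula densa cells and at 18.3, 14.4, 19.7 and 33.9 CPM and 36.9, 27.2, 28.8 and 47.2 CPM in control cells. The populations did not overlap. For Junb the log2 fold change was -2.03 (SE 0.27, adjusted p = 0.000438 by edgeR). Jund, the JUN member most steadily expressed in resting cells, was at 33.5 and 17.8 CPM and 26.6 and 28.4 CPM against 41.99, 37.7, 55.995 and 47.6 CPM and 37.9, 62.2, 59.4 and 56.9 CPM, again without overlap. For Jund the log2 fold change was -0.904 (SE 0.21, adjusted p = 0.0103 by edgeR). Atf3, a stress-induced bZIP factor, was at 1.74 and 2.53 CPM and 5.56 and 10.2 CPM in macula densa cells and at 11.04, 10.1, 6.67 and 12.3 CPM and 27.4, 14.4, 25.8 and 33.6 CPM in control cells. Its log2 fold change was -1.95 (SE 0.28, adjusted p = 0.000768 by edgeR), and the overlap came from the macula densa replicate 2 on low salt with enalapril. Cebpd, a C/EBP factor of acute responses, did not pass: it measured 7.796 and 7.33 CPM and 10.5 and 7.55 CPM in macula densa cells against 5.47, 3.76, 6.09 and 4.34 CPM and 19.2, 5.88, 18.9 and 4.58 CPM in control cells (log2 fold change 0.09, SE 0.36). Junb, Jun, Jund, Cebpb and Cebpd overlap other annotated genes on the opposite strand (Prdx2, Junos, Gm11175, Tmem189 and Spidr). So do Zfp36 (Gm44710), Ppp1r15a (Tulp2), Dusp1 (Ergic1), Dusp5 (AC137853.2), Gadd45a (E230016M11Rik) and Fosl1 (Ccdc85b). Csrnp1 overlaps 1700019L13Rik on the opposite strand and Cx3cr1 on its own strand. Atf3 and Zfp36l1 overlap opposite-strand genes that the deposited count table does not list. Whether the counting used strand is not given in the sources used here, so reads of these genes and their partners cannot be told apart.

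Of the 11 tested EGR, KLF, NR4A and Myc type factors, 7 were lower in macula densa cells and none was higher. Egr1, a zinc finger factor induced by SRF, measured 6.57 and 8.96 CPM and 19.3 and 30.3 CPM in macula densa cells on the 2 diets and 18.2, 19.1, 25.7 and 56.6 CPM and 45.8, 30.4, 51.2 and 51.8 CPM in control cells. The macula densa libraries on low salt with enalapril lay within the range of the control cells on the control diet, and the log2 fold change for the mean of both diets was -1.395 (SE 0.33, adjusted p = 0.0107 by edgeR). Klf2, a zinc finger factor known for its induction by blood flow in endothelium, had the lowest log2 fold change of the members with a mean of at least 5 CPM. It measured 5.23 and 1.303 CPM and 1.72 and 1.804 CPM in macula densa cells and 59.9, 45.9, 57.4 and 7.96 CPM and 8.15, 38.2, 18.1 and 28.4 CPM in control cells, where replicate 4 of the control diet and replicate 1 of low salt with enalapril were lowest. The log2 fold change of Klf2 was -3.71 (SE 0.66, adjusted p = 0.00265 by edgeR), and without the control-diet replicate 4 it was -3.88 (SE 0.49, adjusted p = 0.000141 by edgeR). Klf4, its relative, was at 3.39 and 1.95 CPM and 5.94 and 4.27 CPM against 31.6, 27.1, 25.2 and 8.57 CPM and 15.8, 16.6, 42.6 and 15.97 CPM, without overlap. For Klf4 the log2 fold change was -2.63 (SE 0.43, adjusted p = 0.00156 by edgeR). Klf10, a TGF beta induced member of the family, was at 3.49 and 3.01 CPM and 4.21 and 2.297 CPM against 11.6, 9.96, 9.52 and 5.06 CPM and 7.84, 7.83, 9.87 and 7.93 CPM. For Klf10 the log2 fold change was -1.42 (SE 0.26, adjusted p = 0.00294 by edgeR). Klf6 did not pass although its libraries did not overlap: 8.92 and 12.95 CPM and 11.9 and 14.4 CPM in macula densa cells against 15.96, 17.5, 17.1 and 17.4 CPM and 39.96, 17.1, 79.4 and 17.6 CPM. For Klf6 the log2 fold change was -1.09 (SE 0.37, adjusted p = 0.0568 by edgeR).

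The NR4A orphan nuclear receptors and Myc were measured at low levels. Nr4a1 was at 5.23 and 1.71 CPM and 3.45 and 5.74 CPM in macula densa cells and 10.8, 6.295, 8.76 and 3.93 CPM and 9.07, 11.02, 8.401 and 9.46 CPM in control cells. For Nr4a1 the log2 fold change was -1.07 (SE 0.33, adjusted p = 0.0384 by edgeR). Nr4a3 had 0.205 and 0.326 CPM in macula densa cells on the control diet, 0 counts in both macula densa libraries on low salt with enalapril, and 1.09, 1.22, 1.24 and 0.826 CPM and 2.23, 3.67, 2.1002 and 2.03 CPM in control cells. No macula densa library reached any control cell library, and on low salt with enalapril Nr4a3 was at least 4.70-fold lower in macula densa cells, taking 3 counts per library as the floor and averaging it over the macula densa libraries of that group. Nr4a3 passed for the mean of both diets (adjusted p = 0.000608 by edgeR), but its fitted fold change is not given because a group is at 0. Myc, the growth-promoting factor, was at 0.205 and 0.5702 CPM and 0.766 and 0 CPM against 1.203, 1.69, 1.52 and 1.86 CPM and 4.61, 1.22, 2.31 and 1.93 CPM, the macula densa values being at or near the level of 3 counts. For Myc the log2 fold change was -2.37 (SE 0.61, adjusted p = 0.0171 by edgeR). The other members of the role (Egr2, Nr4a2 and Csrnp1) were not called, at -1.06, 0.19 and -0.91 on the log2 scale.

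Of the 6 feedback inhibitors, 3 were lower in macula densa cells. Dusp1, the phosphatase that switches off mitogen-activated kinases and whose promoter with its cAMP response element is printed above, measured 3.39 and 2.69 CPM and 7.09 and 6.23 CPM in macula densa cells and 45.6, 18.98, 20.8 and 8.57 CPM and 17.3, 21.5, 17.6 and 28.3 CPM in control cells. The populations did not overlap. For Dusp1 the log2 fold change was -2.31 (SE 0.39, adjusted p = 0.00196 by edgeR). Socs3, the inhibitor of cytokine receptor signalling through STAT3, was at 1.95 and 1.47 CPM and 8.05 and 1.804 CPM against 8.31, 5.17, 5.14 and 4.24 CPM and 22.7, 11.5, 21.002 and 24.1 CPM, with 1 macula densa library on low salt with enalapril inside the control cell range. For Socs3 the log2 fold change was -1.89 (SE 0.37, adjusted p = 0.00457 by edgeR). Nfkbia, which encodes the inhibitor that holds NF-kB in the cytoplasm, was at 9.95 and 6.598 CPM and 4.79 and 3.44 CPM against 21.2, 20.3, 17.1 and 7.34 CPM and 12.9, 13.7, 14.9 and 13.2 CPM. The higher macula densa library of the control diet lay above control-diet replicate 4, and the log2 fold change of Nfkbia was -1.37 (SE 0.28, adjusted p = 0.00538 by edgeR). Dusp5, Dusp6 and Trib1 were not called, at 0.16, -0.697 and -0.45 on the log2 scale.

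Among the 4 mRNA decay and antiproliferative factors, 3 were lower in macula densa cells and Zfp36l1 was not. Zfp36, which binds AU-rich elements and destabilises short-lived mRNAs including those of immediate early genes, and whose promoter carries the CArG box printed above, was at 1.95 and 6.19 CPM and 3.83 and 8.86 CPM against 13.6, 7.99, 12.1 and 14.6 CPM and 20.98, 18.4, 22.9 and 27.1 CPM. Macula densa replicate 2 on low salt with enalapril reached into the control range. For Zfp36 the log2 fold change was -1.68 (SE 0.32, adjusted p = 0.00402 by edgeR). Its paralogue Zfp36l1 did not pass and ranged from 28.6 to 52.5 CPM over the 12 libraries, at 37.2 and 35.4 CPM and 39.3 and 41.99 CPM in macula densa cells and 42.5, 32.98, 34.9 and 28.6 CPM and 35.3, 32.8, 52.5 and 37.4 CPM in control cells. For Zfp36l1 the log2 fold change was 0.05 (SE 0.16). Btg1, an antiproliferative cofactor of mRNA deadenylation, was at 13.4 and 10.3 CPM and 13.2 and 22.8 CPM against 21.1, 20.7, 28.2 and 35.6 CPM and 32.3, 37.5, 29.2 and 31.5 CPM. For Btg1 the log2 fold change was -1.004 (SE 0.21, adjusted p = 0.00616 by edgeR). Btg2, its relative with a cAMP response element in the promoter printed above, was at 10.8 and 10.02 CPM and 13.98 and 19.8 CPM against 22.96, 18.04, 15.9 and 28.1 CPM and 34.3, 24.97, 43.7 and 33.2 CPM. For Btg2 the log2 fold change was -1.02 (SE 0.21, adjusted p = 0.00566 by edgeR). Both overlapped between populations only through replicate 2 of the macula densa cells on low salt with enalapril.

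Among the 8 stress and early response effectors, 6 were lower in macula densa cells, Gadd45g did not pass, and Ier3 was the only member of the 39 that passed as higher. Ier3, a regulator of cell survival and of kinase signalling, was at 6.77 and 9.37 CPM and 16.7 and 14.8 CPM in macula densa cells and at 1.53, 1.503, 2.095 and 4.03 CPM and 6.61, 1.96, 7.35 and 2.95 CPM in control cells. Within each diet every macula densa library was above every control cell library. For Ier3 the log2 fold change was 1.77 (SE 0.34, adjusted p = 0.00397 by edgeR). Its namesake Ier5 ran the other way at 3.39 and 0.5702 CPM and 2.49 and 0.328 CPM against 30.7, 15.7, 18.1 and 8.47 CPM and 10.4, 19.6, 6.09 and 18.4 CPM. For Ier5 the log2 fold change was -3.27 (SE 0.61, adjusted p = 0.00342 by edgeR). Ier2, a small nuclear protein induced with Fos, was at 2.36 and 3.26 CPM and 6.705 and 8.53 CPM against 9.95, 8.36, 8.67 and 15.7 CPM and 15.5, 11.3, 10.9 and 21.5 CPM. For Ier2 the log2 fold change was -1.44 (SE 0.26, adjusted p = 0.00304 by edgeR). The populations met only where 1 macula densa library on low salt with enalapril exceeded 1 control cell library, and the macula densa libraries of the control diet were the lowest of all for Ier2. Ppp1r15a, which encodes GADD34, the phosphatase subunit that restores translation after stress, was at 6.46 and 6.19 CPM and 10.2 and 16.1 CPM against 22.96, 17.6, 21.1 and 30.3 CPM and 40.04, 21.1, 32.8 and 33.5 CPM. It separated the populations fully. For Ppp1r15a the log2 fold change was -1.57 (SE 0.22, adjusted p = 0.000705 by edgeR). Rhob also separated fully, at 7.28 and 3.18 CPM and 3.26 and 9.02 CPM against 53.6, 48.8, 42.2 and 11.7 CPM and 22.8, 36.97, 31.3 and 40.4 CPM. For Rhob the log2 fold change was -2.66 (SE 0.45, adjusted p = 0.00194 by edgeR).

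The GADD45 genes, small stress proteins that bind kinases and cell cycle factors, differed among themselves. Gadd45a was at 12.002 and 6.52 CPM and 9.004 and 5.58 CPM in macula densa cells against 18.9, 18.9, 12.95 and 12.9 CPM and 18.9, 22.3, 12.2 and 13.3 CPM. For Gadd45a the log2 fold change was -0.99 (SE 0.25, adjusted p = 0.0159 by edgeR). Gadd45b was at 0.821 and 1.55 CPM and 2.11 and 3.61 CPM against 1.31, 3.29, 3.24 and 5.99 CPM and 5.69, 4.65, 5.25 and 7.22 CPM. For Gadd45b the log2 fold change was -1.26 (SE 0.38, adjusted p = 0.0322 by edgeR). Gadd45g was at 4.82 and 16.5 CPM and 3.45 and 5.91 CPM against 6.45, 7.52, 10.95 and 16.5 CPM and 25.2, 9.55, 21.6 and 16.6 CPM. Gadd45a had no overlap between populations, Gadd45b and Gadd45g did, and for Gadd45g the macula densa replicate 2 on the control diet lay inside the control cell range.

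The level of endothelium and podocyte markers moved with the cell comparison, since all 8 endothelium markers and 5 of 7 podocyte markers were themselves lower in macula densa cells for the mean of both diets. Other cell types also moved with it: all 7 principal cell markers were lower, their sums being 10.7 to 36.0 CPM in macula densa and 102 to 808 CPM in control cell libraries. So were 5 of 6 smooth muscle and renin cell markers, with sums of 19.2 to 37.6 CPM against 102 to 542 CPM. Thick ascending limb markers went the other way, with sums of 2269 to 4095 CPM in macula densa and 200 to 1511 CPM in control cell libraries. The principal cell, smooth muscle and renin cell, and thick ascending limb sums did not overlap between the populations. The covariate used below holds none of these lists, and their part in the result was not tested. In control cells on the control diet, replicate 4, whose endothelium markers were low, was below the other 3 replicates for 18 of the 39 members and above them for 16, against 38.0% and 33.9% of all genes. Large shares of all genes thus lay below or above in replicate 4. The place of a member there is not read as particular to the members. Klf2 was at 7.96 CPM there against 45.9 to 59.9 CPM in the other 3, and Rhob at 11.7 CPM against 42.2 to 53.6 CPM. Klf4, Klf10, Ier5, Dusp1, Nfkbia and Cebpb were likewise below. Fos was at 47.0 CPM there against 19.9 to 23.8 CPM, Egr1 at 56.6 CPM against 18.2 to 25.7 CPM and Junb at 33.9 CPM against 14.4 to 19.7 CPM. Fosb, Ier2, Atf3, Ppp1r15a, Btg1, Btg2 and Zfp36 were likewise above.

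**Figure D3:**
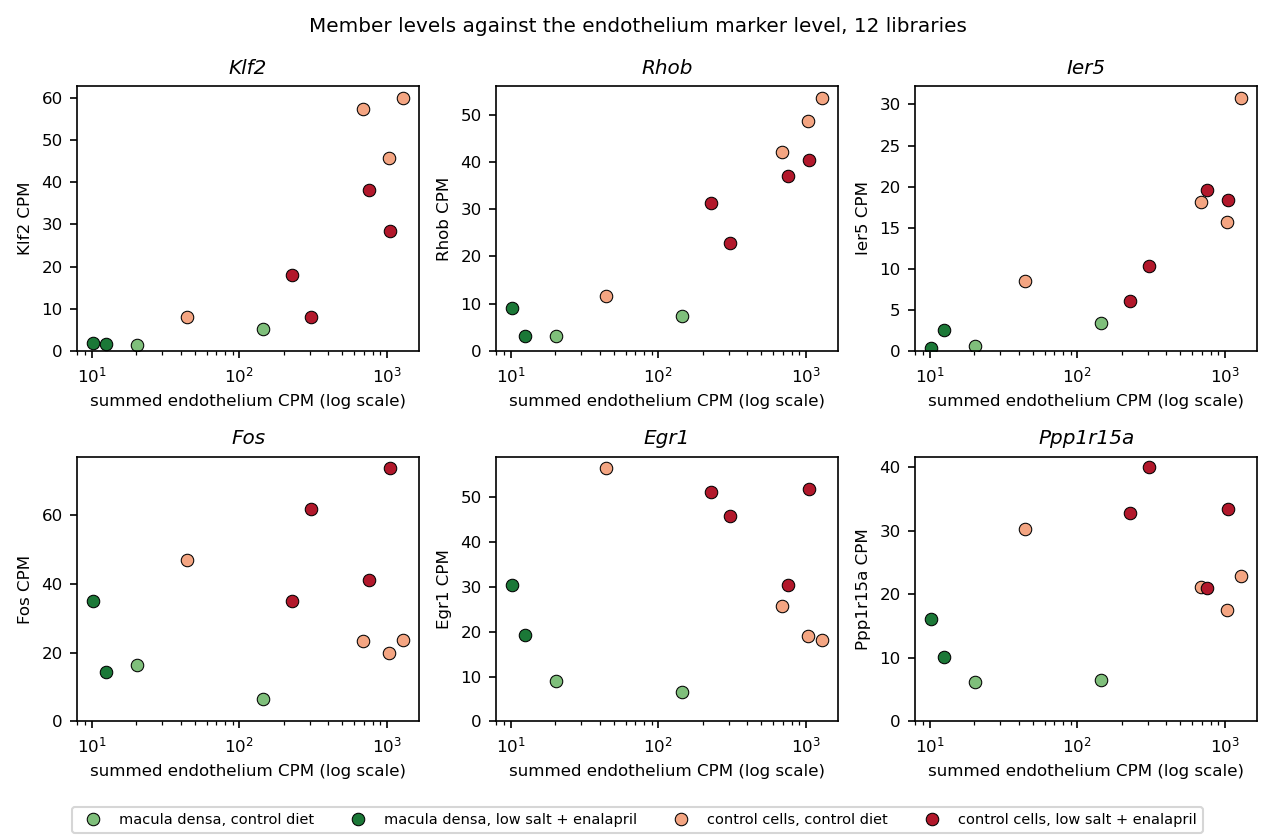
CPM of 6 members (vertical axes) against the summed CPM of 8 endothelium markers (horizontal log axes) in the 12 libraries, coloured by group. In the control cell library with an endothelium sum of 44.2 CPM, Klf2 (7.96 CPM), Rhob (11.7 CPM) and Ier5 (8.47 CPM) lie below the other 3 control-diet control cell libraries, whereas Fos (47.0 CPM), Egr1 (56.6 CPM) and Ppp1r15a (30.3 CPM) lie above them. Large shares of all genes also lay below or above the other 3 in that library, so these places are not read as particular to the members.

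The cell comparison was also fitted with the mean log2 CPM of the podocyte and endothelium markers as a covariate. With it 16 members passed for the mean of both diets, all lower in macula densa cells, against 6.42% of all genes, 17 passed on the control diet (5.15% of all genes) and 9 on low salt with enalapril (3.41%). Of the 27 called without the covariate, 14 were called in both fits: Fos, Fosb, Fosl2, Junb, Atf3, Egr1, Nr4a3, Myc, Zfp36, Btg1, Btg2, Ier2, Gadd45b and Ppp1r15a. The other 13, Jun, Jund, Klf2, Klf4, Klf10, Nr4a1, Dusp1, Socs3, Nfkbia, Ier3, Ier5, Gadd45a and Rhob, were not called with it, and Klf6 and Gadd45g were called only with it. The log2 fold change of Klf2 went from -3.71 to -1.19 (SE 0.38, adjusted p = 0.0839 by edgeR), that of Rhob from -2.66 to -1.07 (adjusted p = 0.118 by edgeR) and that of Ier3 from 1.77 to 0.63 (adjusted p = 0.361 by edgeR). Egr1 went the other way, from -1.395 to -2.38 (SE 0.27, adjusted p = 0.000193 by edgeR), as did Fos, from -1.21 to -2.07 (adjusted p = 0.00882 by edgeR). This division depends on 1 library. The mean marker level ran from 0.245 to 3.84 log2 CPM in macula densa libraries and from 4.03 to 6.77 log2 CPM in 7 of the 8 control cell libraries, and only control-diet replicate 4, at 2.16, lay in the macula densa range. Without that library the covariate fit called 3 of 38 members (Fosl2, Klf6 and Gadd45g), against 0.76% of all genes, none on the control diet (0.547% of all genes, 18 members and 11.7% of all genes at an unadjusted p under 0.05 by edgeR) and 3 on low salt with enalapril (0.852%). There, marker level and cell population cannot be told apart. Without that library and without the covariate, 30 of 38 members passed for the mean of both diets (28.2% of all genes), 22 on the control diet (17.7%) and 19 on low salt with enalapril (13.5%).

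**Figure D4:**
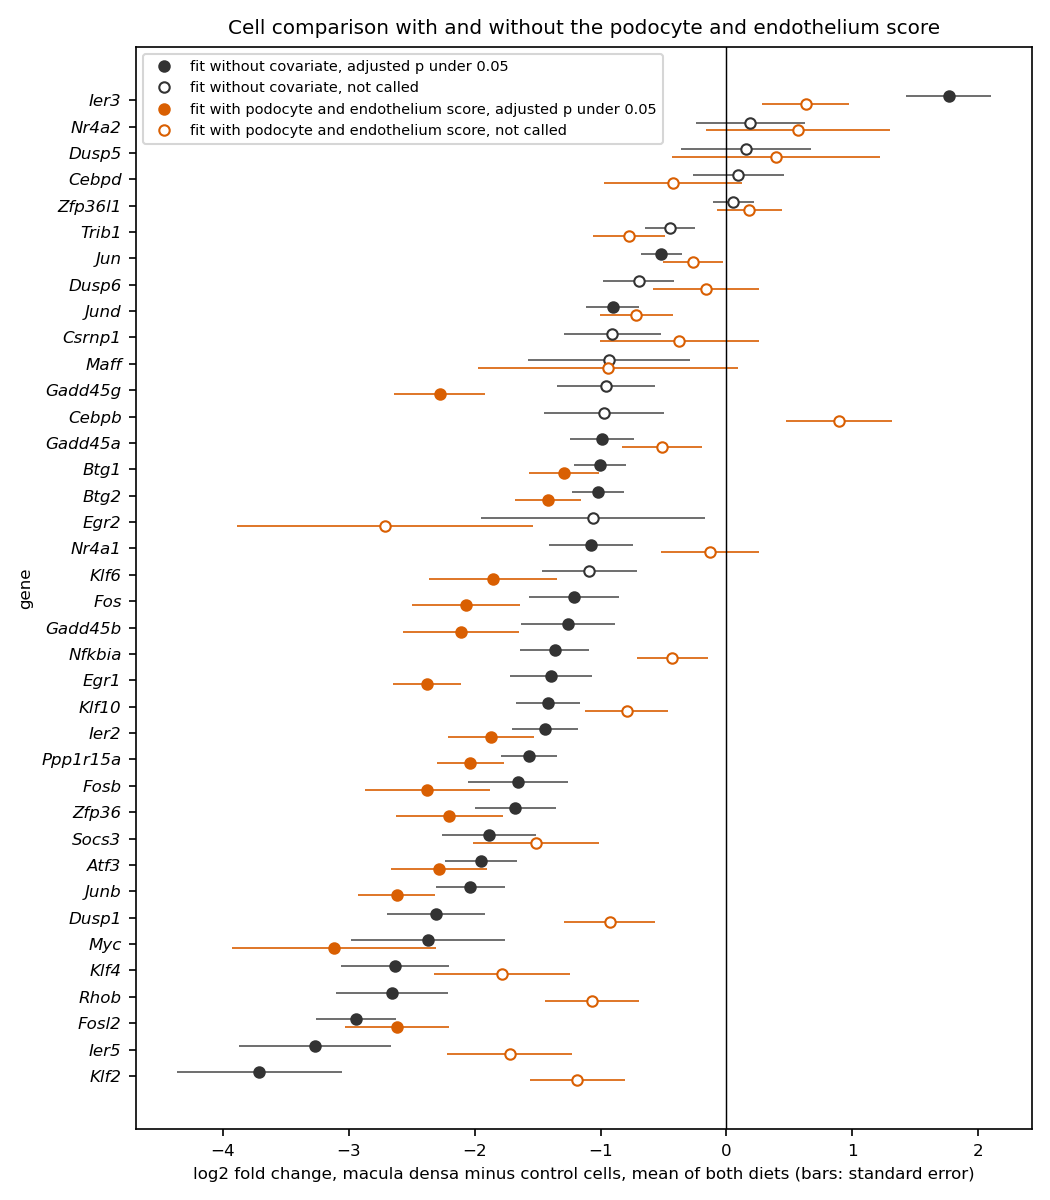
Log2 fold change (points; bars, standard error) between macula densa and control cells for the mean of both diets, for 38 tested members (Nr4a3, with a group at 0 counts, is left out), from the fit without covariate (dark) and the fit with the podocyte and endothelium score (orange); filled points passed an adjusted p of 0.05. The covariate brings Klf2 from -3.71 to -1.19 and takes Egr1 from -1.395 to -2.38.

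The second question was whether low salt with enalapril changes these transcripts. Ren1, the renin gene, served as a check of the diet and was the single gene of 14180 that passed in control cells. It was at 5.58, 1.88, 6.19 and 4.44 CPM on the control diet and 42.7, 135, 66.4 and 92.6 CPM on low salt with enalapril. No member passed an adjusted p of 0.05 by edgeR in macula densa cells, in control cells or for the mean of both populations, where 0%, 0.00705% and 0.00705% of all genes passed. At an unadjusted p under 0.05 the members counted 8 of 39 in macula densa cells (11.2% of all genes), 13 of 39 in control cells (6.45% of all genes) and 16 of 39 for the mean (12.6% of all genes). Those 13 in control cells all had higher values on low salt with enalapril, as had 6 of the 8 in macula densa cells and 15 of the 16 for the mean, against 4.01%, 5.51% and 6.18% of all genes in that direction. Nfkbia was the 1 lower for the mean (6.37% of all genes), and Nr4a3 and Nfkbia the 2 lower in macula densa cells (5.73%). Nr4a3 had 2 and 4 counts there on the control diet and 0 in both libraries on low salt with enalapril. Its diet difference in macula densa cells is therefore limited by counting. DESeq2 called Atf3 in macula densa cells (0.656% of all genes), Atf3 and Socs3 in control cells (0.522%), and Jun, Atf3, Egr1, Socs3 and Ier2 for the mean (1.73%), all higher. In macula densa cells 15 members had both libraries on low salt with enalapril above both on the control diet (18.8% of all genes). In 4, Nr4a3 among them, they were below (21.8%). In control cells 6 members, Fosl2, Jun, Atf3, Nr4a3, Socs3 and Zfp36, had all 4 above all 4 (2.1% of all genes) and none had them below. The mitochondrial share of counts moved with diet in macula densa cells, without overlap. It was 11.7% and 14.1% on the control diet and 7.18% and 6.88% on low salt with enalapril. Marker sums that were lower there without overlap were those of thick ascending limb (3232 to 4095 CPM, then 2269 to 2364 CPM) and proximal tubule (140 to 229 CPM, then 46.9 to 104 CPM). Endothelium and smooth muscle and renin cell sums were also lower without overlap. The macula densa marker sum was higher (2118 to 2386 CPM, then 2641 to 3068 CPM). The part of all these in the diet values was not tested. The median log2 fold change of the members was 0.54 in macula densa cells, 0.58 in control cells and 0.49 for the mean, against -0.02, -0.04 and -0.03 for all genes.

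Atf3 had the lowest p of the members for the mean of both populations. Its values were 1.74 and 2.53 CPM on the control diet and 5.56 and 10.2 CPM on low salt with enalapril in macula densa cells, and 11.04, 10.1, 6.67 and 12.3 CPM and 27.4, 14.4, 25.8 and 33.6 CPM in control cells. The diets did not overlap in either population, and the log2 fold change was 1.87 (SE 0.45) in macula densa cells and 1.34 (SE 0.29) in control cells, with 1.61 for the mean (SE 0.27, adjusted p = 0.0896 by edgeR and 6.5e-05 by DESeq2). Jun, whose values are given above, was the other member without overlap between diets in both populations, where 0.896% of all genes were above on low salt with enalapril in that way. Its log2 fold change was 0.91 (SE 0.26) in macula densa cells and 0.58 (SE 0.18) in control cells, with 0.74 for the mean (SE 0.16, adjusted p = 0.138 by edgeR and 0.00125 by DESeq2).

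For Socs3 and Egr1 single libraries set the ranges. The log2 fold change of Socs3 with diet was 1.805 (SE 0.38) in control cells, where all 4 libraries on low salt with enalapril were above all 4 on the control diet. In macula densa cells it was 1.51 (SE 0.60), and there replicate 1 was at 8.05 CPM while replicate 2, at 1.80 CPM, lay between the control-diet values. For the mean Socs3 had an adjusted p of 0.138 by edgeR. Egr1 was 1.68 (SE 0.52) in macula densa cells and 0.59 (SE 0.35) in control cells, where control-diet replicate 4 was above each library on low salt with enalapril. Without that library the log2 fold change of Egr1 for the mean was 1.39 (SE 0.21, adjusted p = 0.0423 by edgeR) and that of Atf3 1.67 (SE 0.27, adjusted p = 0.0451 by edgeR). These were the 2 members called for the mean of both populations without it, against 0.142% of all genes. With the podocyte and endothelium score as a covariate, Jun, Atf3, Cebpb, Egr1 and Socs3 passed for the mean, all higher on low salt with enalapril, against 1.38% of all genes, and with that covariate and without that library none passed by edgeR, 15 of 38 having an unadjusted p under 0.05 (9.48% of all genes).

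By role, the AP-1 and bZIP factors had positive diet differences in 8 of 10 members in macula densa cells and 10 of 10 in control cells. Their medians were 0.65 and 0.89 on the log2 scale, where the medians of all genes given above were slightly negative. The 4 mRNA decay and antiproliferative factors were positive in both populations, as were 25.4% of all genes. Ier2 (1.43 in macula densa cells and 0.48 in control cells), Ppp1r15a (1.05 and 0.48), Fos (1.12 and 0.896) and Fosb (0.98 and 0.88) were positive in both without passing. The feedback inhibitors were positive in 2 of 6 members in each population. Nfkbia was -1.01 (SE 0.44) in macula densa cells and -0.27 (SE 0.29) in control cells. Among members low in control-diet replicate 4, Klf2 was -0.86 (SE 1.02) and -0.895 (SE 0.59), Ier5 -0.495 and -0.42, and Rhob 0.25 and -0.25. The 8 endothelium markers had a median log2 fold change with diet of -1.60 for the mean of both populations, with none positive and none passing by edgeR (3 at an unadjusted p under 0.05), and their part in these values was not tested. With the podocyte and endothelium score as a covariate the mean diet difference was 0.06 for Klf2 and 0.104 for Ier5, against -0.88 and -0.46 without it.

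**Figure D5:**
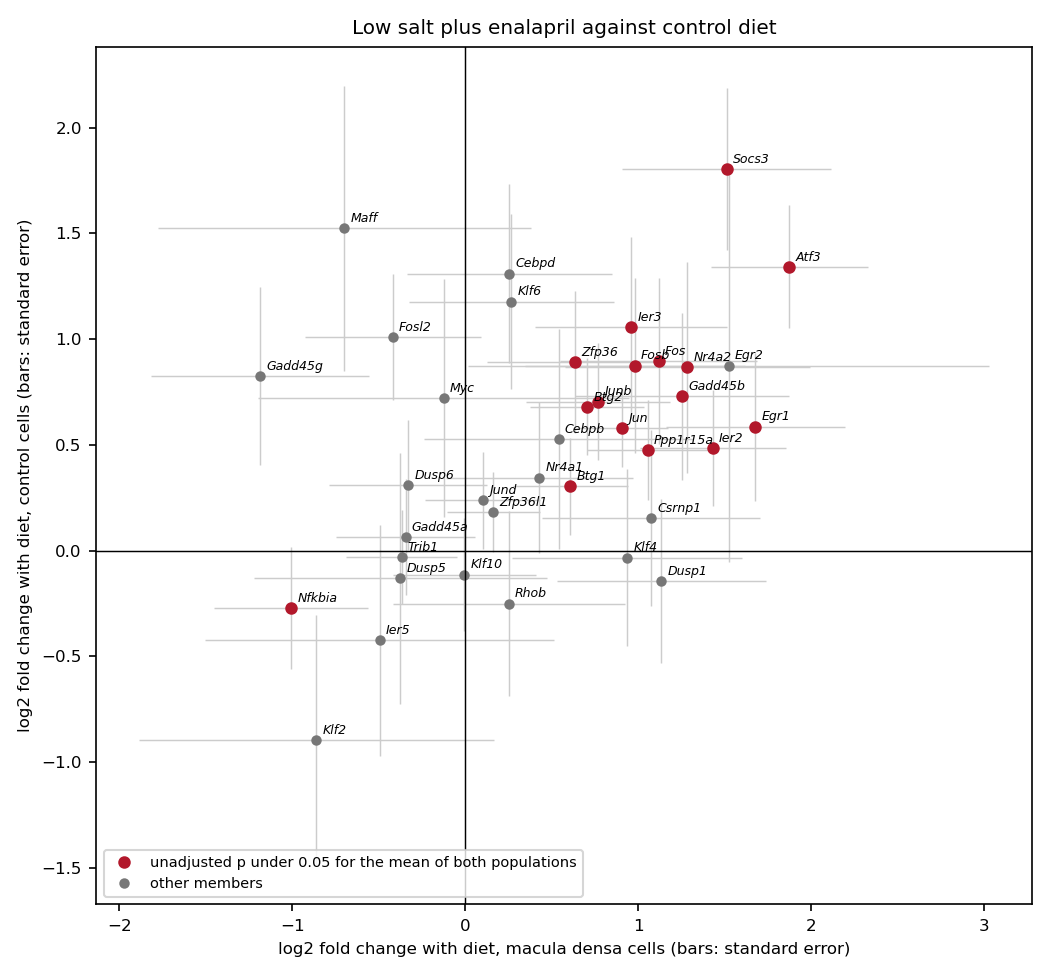
Log2 fold change with low salt and enalapril in macula densa cells (horizontal axis) and in control cells (vertical axis) for 38 tested members (bars, standard error; Nr4a3 left out for its group at 0 counts); red points had an unadjusted p under 0.05 for the mean of both populations. Atf3 (1.87 and 1.34) and Socs3 (1.51 and 1.805) lie farthest to the upper right, Klf2 (-0.86 and -0.895) to the lower left.

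The 2 populations share no library in these diet comparisons. The diet difference had the same sign in both for 29 of 39 members (74.4%, against 56.6% of all genes) and was positive in both for 23 (59.0%, against 25.4%). Each macula densa library has a description number that a control cell library of the same diet also bears. The labels do not say what this number marks, and whether the diet differences of the populations are independent was not tested. Testing the difference of the diet effects between populations, edgeR called no member and none of the 14180 genes. DESeq2 called no member and 13 of all genes (0.0917%). At an unadjusted p under 0.05 there were 3 members (7.03% of all genes), Fosl2, Nr4a3 and Gadd45g, each with the lower diet difference in macula densa cells. Nr4a3, at 0 counts in both macula densa libraries on low salt with enalapril, is limited by counting here. Fosl2 was -0.42 (SE 0.51) in macula densa cells and 1.01 (SE 0.30) in control cells, a difference of -1.43 (SE 0.59, adjusted p = 0.688 by edgeR). Gadd45g differed by -2.01 (SE 0.76, adjusted p = 0.6804 by edgeR). Cebpd had a diet difference of 1.31 (SE 0.42) in control cells, where replicates 1 and 3 on low salt with enalapril were at 19.2 and 18.9 CPM and replicates 2 and 4 at 5.88 and 4.58 CPM.

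A further 42 tested primary response genes outside the set were compared in the same way, with 22 lower and 3 higher in macula densa cells for the mean of both diets (13.9% and 7.48% of all genes) and a median log2 fold change of -1.11. The 3 higher ones were Ptgs2, the prostaglandin synthase of the macula densa, at 15.9 and 14.3 CPM and 175 and 108 CPM against at most 1.47 CPM in control cells, Dusp4 (log2 fold change 1.696, SE 0.37, adjusted p = 0.00781 by edgeR) and Rgs2, a brake on G protein signalling (1.097, SE 0.27, adjusted p = 0.0129 by edgeR). Among the lower ones was Sgk1, a salt-regulated kinase, at 9.64 and 2.85 CPM and 2.299 and 0 CPM against 74.8, 60.04, 64.4 and 6.302 CPM and 26.9, 56.8, 46.2 and 44.8 CPM, again low in control-diet replicate 4. For diet, none of these 42 passed by edgeR, and 15 had an unadjusted p under 0.05 for the mean (12.6% of all genes), 14 of them positive (6.18%). Of the 21 tested upstream kinases and factors, which relay the signal to these promoters, 2 were lower in macula densa cells (Srf and Rps6ka1) and none higher. Their median log2 fold change was -0.09, and of all genes 13.9% were lower and 7.48% higher. Srf, the factor that binds the CArG box, had a log2 fold change of -1.099 (SE 0.27, adjusted p = 0.0134 by edgeR). On the control diet its macula densa values (6.77 and 4.81 CPM) lay inside the control cell range (4.65 to 7.61 CPM). On low salt with enalapril they were 1.92 and 1.31 CPM, against 4.41 to 9.26 CPM in control cells.

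Heat shock genes are also induced by dissociation and other handling stresses. Of 13 tested, 1 (Hspd1) was higher and 1 (Hspb1) lower in macula densa cells, against 7.48% and 13.9% of all genes. The summed CPM of the 13 was 1160 to 1384 in macula densa libraries and 819 to 1172 in control cell libraries, with overlap. Hspa1a, the inducible HSP70 gene, chosen after its values were seen, was at 87.2 and 52.3 CPM and 81.99 and 126 CPM in macula densa cells and 31.4, 40.5, 41.6 and 46.9 CPM and 93.5, 87.6, 59.4 and 139.97 CPM in control cells. In control cells every library on low salt with enalapril was above every control-diet library for Hspa1a, and its log2 fold change with diet for the mean of both populations was 0.91 (SE 0.24, adjusted p = 0.174 by edgeR). Its neighbour Hspa1b, a near-identical copy whose reads may be split with it, had a diet difference of 0.97 (SE 0.25, adjusted p = 0.162 by edgeR). None of the 13 passed for diet, and 4 had an unadjusted p under 0.05, 2 positive and 2 negative. For the mean of both populations 12.6% of all genes had such a p by edgeR, 6.18% positive and 6.37% negative. The mitochondrial share of counts also moved with the cells, at 6.88% to 14.1% in macula densa libraries and 3.48% to 9.98% in control cell libraries, and its part in the results was not tested.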

How the data were processed

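Total RNA of 12 sorted cell libraries was sequenced. The deposited table holds estimated counts per gene, of which 15.0% were not whole numbers and were rounded here. Per the submitters' processing notes, STAR 2.61, Partek and mm10 were used. The counting method and its use of strand are not given in the sources used here. Libraries were grouped from the labels, and replicates differed by more than sampling noise.

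Counts were filtered with filterByExpr (count minimum 10, total minimum 15), scaled by TMM and fitted with edgeR 4.0.16 (R 4.3.3, limma 3.58.1) by its quasi-likelihood test, with 1 coefficient per group over all 12 libraries and Benjamini-Hochberg adjustment over 14180 genes at 0.05. Log2 CPM used a prior count of 2, and 3 counts were taken as the floor. Gene lengths and overlaps came from GENCODE (GRCm38). DESeq2 1.42.0, other scalings and filters, covariates, replicate blocks and leaving out each library were alternatives. The scripts were tested on simulated data.

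The members, lists and tests were chosen with earlier results of these data known. Values in every library were given for members that passed in any comparison and for the 3 members with the largest change in each direction in each comparison among those with a mean of at least 5 CPM.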

Additional observations from a re-analysis of the deposited data

Results flagged for a closer look

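Among 78 sets of 4 control cell libraries (39 members on 2 diets), 5 held 1 library far from the other 3 by Dixon's test at the 95% level, where chance gives about 1 in 20, or 3.9 of 78. In control cells on the control diet, replicate 4 was low for Klf2, at 3.03 log2 CPM against 5.53 to 5.91 in the other 3, and for Rhob, at 3.57 against 5.41 to 5.75. This is the library whose endothelium and podocyte markers were also the lowest of the control cells. Its thick ascending limb, distal tubule and collecting duct marker sums were the highest of the control cells. The part of either in these values was not tested.

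In control cells on low salt with enalapril, replicate 3 was high for Klf4, at 5.42 log2 CPM against 4 to 4.08, and for Klf10, at 3.34 against 3.01 to 3.03. Replicate 2 of that group was high for Nr4a3, at 1.96 log2 CPM against 1.18 to 1.3.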

How the results depend on the processing

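For the mean of both diets the cell comparison called 27 members (21.3% of all genes). With the podocyte and endothelium score as a covariate it called 16 (6.42%), 14 of them among the 27. With that score and without control-diet control cell replicate 4 it called 3 (0.76%), of which only Fosl2 was among the 27. That alternative was chosen after seeing the data (median log2 fold change -1.48). On the control diet, 14 (6.61% of all genes) became 6 in a fit of only the groups compared. The count became 0 with the score and that library left out (0.547% of all genes, median -1.57). There 18 had an unadjusted p under 0.05 by edgeR (11.7% of all genes). On low salt with enalapril, 14 (7.27% of all genes) became 6 with library totals alone (median -0.97) and 22 by DESeq2 (13.6%). The count was 9 with the score (3.41%) and 3 with the score and that library left out (0.852%). The diet comparisons had 0 called. In macula densa cells they gave 1 by DESeq2 (0.656% of all genes) and 1 in only the groups compared. Control cells gave 2 by DESeq2 (0.522%), and the mean gave 5 by DESeq2 (1.73%) and 5 with the score (1.38%). The difference between diet effects gave 1 with the score and that library left out (0.107% of all genes). Where no share is given, here and below, the count was not set against that of all genes. Its change is not read as a change particular to the members. Causes were not tested.

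The replicate block, by title number, gave 7, 6 and 19 called for the control diet, low salt with enalapril and the mean of both, and the block by description number 20, 22 and 28. The description block uses 8 libraries, leaving out 4 control cell libraries, replicate 4 of the control diet among them; the same 8 libraries without a block, an alternative added after seeing the data, gave 15, 18 and 28. Deviations of libraries with the same number correlated at -0.38 to 0.28 for titles and -0.04 to 0.23 for descriptions. With 2 macula densa libraries per group these deviations mirror each other, so the correlations cannot show whether the libraries are paired, and the labels do not say what the description number marks.

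Leaving out each library in turn gave 0 to 22, 2 to 19 and 22 to 30 called in the 3 cell comparisons, with medians of -1.48 to -1.29, -1.35 to -1.14 and -1.52 to -1.13. The lowest count on the control diet was without macula densa control-diet replicate 1. That on low salt was without macula densa low salt replicate 2, and each of these fits left 1 library in a group. The highest counts were without control-diet control cell replicate 4, where 17.7%, 13.5% and 28.2% of all genes passed. For diet it gave 0 to 0, 0 to 0, 0 to 2 and 0 to 0 called (macula densa, control cells, mean, difference), with medians of 0.32 to 0.61, 0.42 to 0.66, 0.37 to 0.68 and -0.15 to 0.02.

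Over all 39 members, the sign turned under at least 1 alternative for 8, 7 and 5 members in the 3 cell comparisons and for 14, 10, 14 and 25 in those of diet (macula densa, control cells, mean, difference). Of the called members only Ier3 turned, on low salt. Values follow for the 5 genes that turned among those named with a test. Zfp36l1 turned on the control diet (-0.21 with the score and library left out, -0.019 to 0.21 when single libraries were left out), on low salt (-0.037 with no filter, -0.19 with both, and -0.047 to 0.21 when single libraries were left out) and for the mean (-0.20 with both). Cebpd turned on the control diet (-1.09 with both), for the mean (-0.42 with the score, -1.70 with both, and -0.051 to 0.26 when single libraries were left out) and in the difference between diet effects (0.14 with the description block, 0.20 with its 8 libraries without a block). Ier3 turned on low salt (-0.061 with both). For diet, Klf2 turned in macula densa cells (0.72 with the score, 0.72 with both, and -1.64 to 0.38 when single libraries were left out, the highest without macula densa control-diet replicate 1) and for the mean (0.055 and 0.055), and Ier5 in control cells (0.14 with both, 0.17 with the 8 libraries) and for the mean (0.10, 0.64 and, when single libraries were left out, -1.50 to 0.39, the highest without that same replicate). At these depths members near 3 counts, such as Myc, Maff and Egr2, are limited by counting.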
